A study of Homo sapiens with 16 samples.

Results

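The genes described here are ACTB and ACTG1, which encode the cytoplasmic beta- and gamma-actins, and 8 genes for proteins that act on actin: PFN1, CFL1, ACTN1, ACTN4, TPM1, TPM4, MYL6 and EZR. These 10 genes were listed by name for their role in the actin cytoskeleton, and the list was selected on earlier values of these libraries, in which the ACTB signal was low with the KLF5 and plko constructs. All 10 were found among the 11282 genes of the deposited table. Their levels in the KLF5, plko and hairpin control libraries are therefore given as a description. The fit over all genes covers every comparison, but its p-values for the members are read only for RBPJ, NFIB and FOXA1.

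The cells were HCC70, a line derived from a triple-negative, basal-like breast carcinoma, grown in 96-well plates and infected with hairpin constructs. The series addresses regulators of cell-state heterogeneity and of division symmetry in this cancer type. RNA was read from its 3′ ends by a CEL-Seq protocol, in which each library is barcoded before amplification, and values are the deposited DESeq2-normalized signal. There were 16 libraries of 8 constructs, with 2 libraries each. The constructs named KLF5, RBPJ, NFIB and FOXA1 are each aimed at the transcription factor of that name, and their libraries 1 and 2 carry different hairpins. The reference for each was a set of 6 libraries with hairpins named shRFP, shLACZ and shLUC, after genes that human cells lack, called hairpin controls below. The libraries labelled plko, the name of a lentiviral hairpin backbone, were kept as a group of their own. Earlier results of these data had shown them to differ from the other control libraries. All groups share the cell line and the infection, and no library of uninfected cells was analysed here. Every library has its own construct identifier in the labels (plko included), though that of 1 plko library is all zeros.

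Actin cycles between free subunits and filaments, and the balance of the phases is set by proteins that hold, deliver, sever, crosslink or decorate it. Profilin feeds subunits to growing ends, cofilin severs old filaments, alpha-actinins tie filaments into bundles, and tropomyosins coat them and set which myosins may bind. Free actin also holds back the coactivators of SRF, a transcription factor that binds the CArG box in promoters of many cytoskeletal genes, so that actin genes are under feedback from their own product. In basal-like epithelial cells this network shapes the cortex, junctions and movement.

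Library totals, recovered as whole reads, ran over a range of 375713 (plko 1) to 3090666 (RBPJ 1) with a median of 1164801.5. The targeted transcript was at 63.4% and 37.8% of the hairpin control mean in KLF5 1 and 2, at 71.1% and 12.6% for NFIB and at 24.4% and 58.6% for FOXA1. RBPJ was at 89.5% in the library labelled RBPJ 1, inside the hairpin control range, and at 17.7% in RBPJ 2. All 7 basal-like epithelial markers were in the table, with summed signals of 3495 to 8456, while ESR1, PGR and ERBB2 together were at 16.8 to 39.1. The labels do not say which libraries shared a barcoding batch of 12, so batch and construct cannot be told apart. These are bulk libraries, in which fewer cells of a type and less RNA per cell cannot be told apart.

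Promoter sequence was read from RefSeq, assembly GRCh38.p14, over the 250 bases before and 50 bases after each start site. Of the 10 genes 9 were matched, with 15 promoters. ACTB was the gene without a match, so its promoter was not searched for any motif. The CArG box was found in 3 of the 15 promoters, of 3 genes, and in 1.29% of all 35116 promoters. These 3 windows of 60 bases are shown because the CArG box is the element that links actin genes to SRF; capitals mark it.

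ACTG1: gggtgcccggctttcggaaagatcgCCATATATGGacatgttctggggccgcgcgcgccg

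ACTN1: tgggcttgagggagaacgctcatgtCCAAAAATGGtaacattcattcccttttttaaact

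TPM4: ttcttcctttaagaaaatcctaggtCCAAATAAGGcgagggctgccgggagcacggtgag

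The ACTG1 window is chr17:81512859-81512918 on the minus strand, with the box at -94 to -85 from the start site. The ACTN1 window is chr14:68977703-68977762 on the minus strand, with the box at -171 to -162. The TPM4 window is chr19:16067340-16067399 on the plus strand, with the box at -173 to -164. ACTN1 and TPM4 also have other promoters among those searched, in which no CArG box was found. PFN1 and CFL1, whose levels followed each other most closely across the libraries, are shown by the 100 bases before their start sites, with the CACCC element bound by KLF factors in capitals.

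CFL1: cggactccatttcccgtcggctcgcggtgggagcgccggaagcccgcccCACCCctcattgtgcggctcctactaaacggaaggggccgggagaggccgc

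PFN1: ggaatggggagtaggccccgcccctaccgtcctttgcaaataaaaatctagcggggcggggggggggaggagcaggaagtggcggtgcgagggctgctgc

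The CFL1 window is chr11:65858181-65858280 and the PFN1 window chr17:4948531-4948630, both on the minus strand. CFL1 holds CACCC at -51 to -47, and the CACCC of PFN1 lies outside the printed stretch, at -219 to -215. CACCC was found in 12 of the 15 promoters, of 8 genes, and in 59.9% of all promoters, searched on both strands. The RBPJ core GTGGGAA was in 0 of the 15 promoters of these genes and in 6.25% of all. The NFI palindrome, TTGGC and GCCAA spaced by NNNNN, was in 0 of the 15 and in 0.028% of all. Of the FOXA sites, TGTTTAC was in 0 of the 15 and in 3.42% of all, and TATTTAC was in 1, of ACTN1, and in 2.67% of all. CACCC, read on the other strand, can share letters with GTGGGAA. A match is a description of letters, not of binding.

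ACTB (ENSG00000075624) had the widest range of the 10 genes. Its signal was 161 and 275 in KLF5 1 and 2, 1144 and 2601 in RBPJ 1 and 2, 1603 and 1779 in NFIB 1 and 2, 1583 and 1705 in FOXA1 1 and 2, and 490 and 540 in plko 1 and 2. In the 6 hairpin controls it was 1501 at the lowest, 2085 at the median and 2225 at the highest, with a mean of 2005 ± 258 (SD, n = 6). Both KLF5 libraries lay below both plko libraries, and these 4 lay below the other 12 libraries. The KLF5 signals were 8.05% and 13.7% of the hairpin control mean, and the plko signals 24.4% and 26.9%. The log2 difference from the hairpin controls was -3.23 ± 0.24 (SE) for KLF5 and -1.95 ± 0.24 for plko, and -1.28 ± 0.29 for KLF5 against plko. These rest on 227 and 236 recovered reads in KLF5 1 and 2, 222 and 871 in plko 1 and 2, and 1066 to 3394 in the hairpin controls.

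ACTG1 (ENSG00000184009) encodes a protein nearly identical to beta-actin, and its levels were ordered differently. The signal was 927 and 841 in KLF5 1 and 2, 631 and 1545 in RBPJ, 1229 and 715 in NFIB, 1055 and 984 in FOXA1, and 483 and 584 in plko. Hairpin controls ran over 1028, 1124 and 1329 (lowest, median and highest), with a mean of 1133 ± 108 (SD, n = 6). Here plko 1 and 2 were the lowest of all libraries, and the KLF5 libraries lay above them and below the hairpin control range. The log2 difference was -0.35 ± 0.24 for KLF5 and -1.09 ± 0.24 for plko against hairpin controls, and 0.73 ± 0.30 for KLF5 against plko. So between KLF5 and plko the difference was negative for ACTB and positive for ACTG1.

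**Figure D1:**
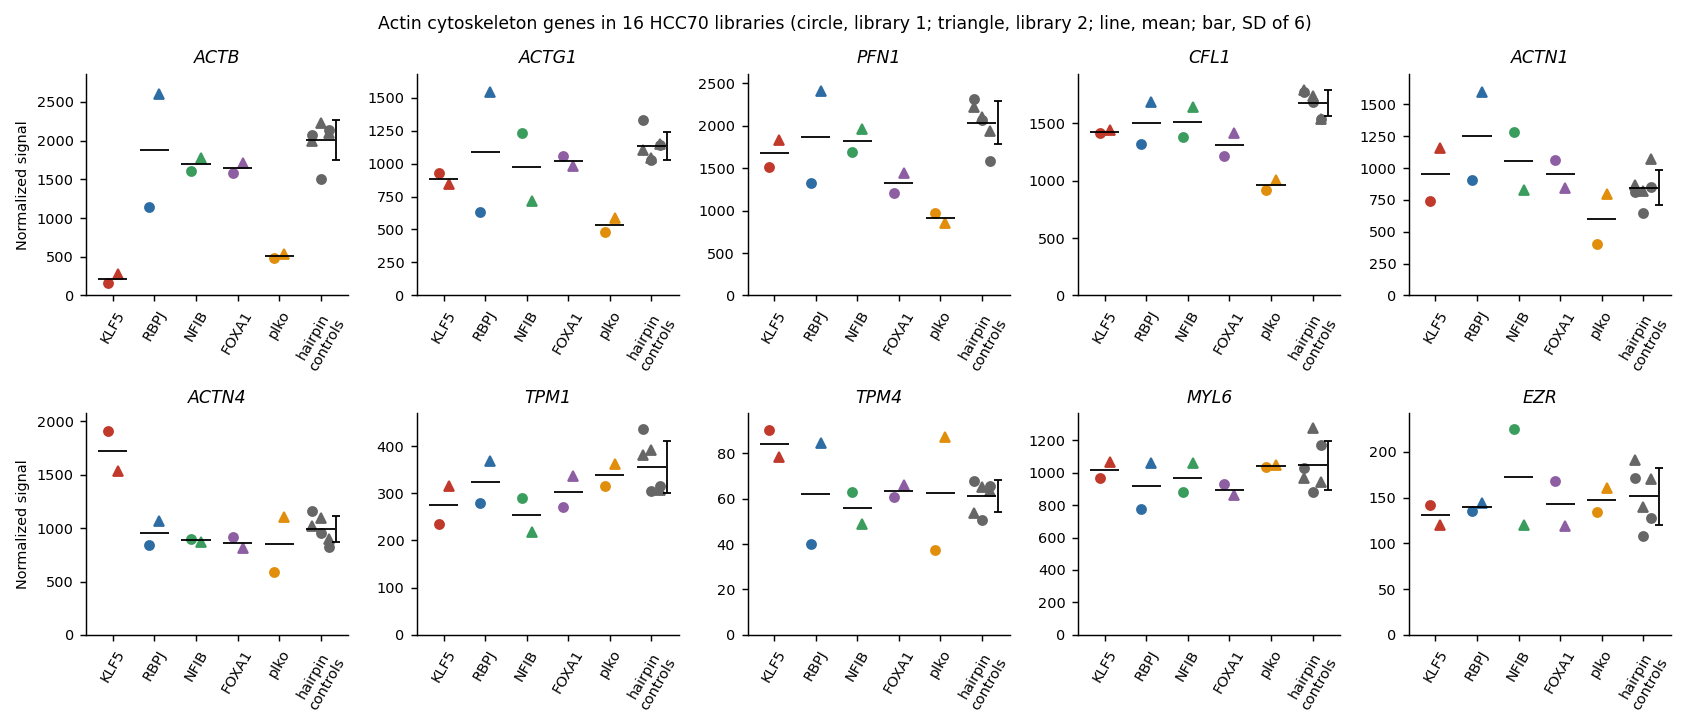
Deposited normalized signal (vertical axes, starting at 0) of the 10 genes in each of the 16 libraries by construct; circles are library 1, triangles library 2, black lines group means and bars the SD of the 6 hairpin controls. ACTB was at 161 and 275 in KLF5 and at 490 and 540 in plko, below the other 12 libraries, whereas MYL6 in the same 4 libraries lay inside the hairpin control range.

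The ratio of the ACTB signal to the ACTG1 signal was used to follow the actin pair within a library, since a library's scaling cancels in it. It is read only between libraries, because the capture of different transcripts may differ. The ratio was 0.174 and 0.327 in KLF5 1 and 2, 1.81 and 1.68 in RBPJ, 1.30 and 2.49 in NFIB, 1.50 and 1.73 in FOXA1, and 1.01 and 0.924 in plko. In the hairpin controls the lowest was 1.46, the median 1.82 and the highest 2.13. Both RBPJ libraries and both FOXA1 libraries lay inside the hairpin control range, although the ACTB and ACTG1 signals of RBPJ 1 and 2 had differed 2.27-fold and 2.45-fold. NFIB 1 lay below that range and NFIB 2 above it.

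**Figure D2:**
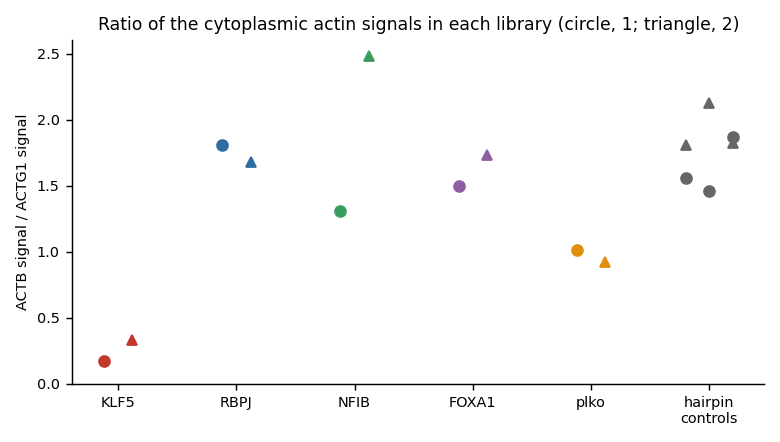
Ratio of the ACTB signal to the ACTG1 signal (vertical axis, from 0) in each library; circles are library 1, triangles library 2, and the hairpin controls are drawn in the order shRFP, shLACZ, shLUC. The KLF5 libraries are at 0.174 and 0.327 and the plko libraries at 1.01 and 0.924, all below the hairpin control range of 1.46 to 2.13.

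PFN1 (ENSG00000108518), profilin, and CFL1 (ENSG00000172757), cofilin, handle actin subunits and filament turnover. PFN1 was at 1518 and 1829 in KLF5, 1323 and 2408 in RBPJ, 1689 and 1957 in NFIB, 1202 and 1446 in FOXA1, and 966 and 856 in plko. Hairpin controls ran over 1589, 2083 and 2320.4 (lowest, median and highest; mean 2039 ± 256, SD, n = 6). The plko libraries were the lowest, both FOXA1 libraries lay below the hairpin control range, and KLF5 2 lay inside it. CFL1 was at 1413 and 1446 in KLF5, 1323 and 1683 in RBPJ, 1380.4 and 1643 in NFIB, 1211 and 1418 in FOXA1, and 918 and 1007 in plko. Its hairpin controls ran over 1535, 1710.2 and 1794, with a mean of 1678 ± 115. CFL1 repeated the order of PFN1 at the low end, with plko lowest and FOXA1 1 next, and both KLF5 libraries lay below its hairpin control range. For plko the log2 differences were -1.15 ± 0.21 for PFN1 and -0.80 ± 0.17 for CFL1, and for KLF5 they were -0.28 ± 0.21 and -0.23 ± 0.17. Between KLF5 and plko both were positive, at 0.87 ± 0.25 for PFN1 and 0.57 ± 0.21 for CFL1.

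The alpha-actinins ACTN1 (ENSG00000072110) and ACTN4 (ENSG00000130402) bundle filaments, at adhesions and at the cortex. ACTN4 was at 1910.2 and 1538 in KLF5, 840.2 and 1068 in RBPJ, 900.0 and 872 in NFIB, 917 and 811 in FOXA1, and 591 and 1108 in plko. In hairpin controls it ran over 827, 986 and 1164, with a mean of 993 ± 124 (SD, n = 6). Both KLF5 libraries were above all 14 others, which held for none of the other 9 members. The share of all genes with that order of libraries was not computed. Its log2 difference was 0.80 ± 0.20 for KLF5 and -0.28 ± 0.20 for plko against hairpin controls, and 1.08 ± 0.25 for KLF5 against plko. ACTN1 was at 743 and 1157 in KLF5, 909 and 1596 in RBPJ, 1285 and 829 in NFIB, 1063 and 843 in FOXA1, and 402 and 796 in plko. Its hairpin controls ran over 645, 836 and 1073, with a mean of 844 ± 137. The 2 libraries of KLF5, RBPJ, NFIB and plko each fell 1 inside and 1 outside that range. The log2 differences of ACTN1 were 0.15 ± 0.26 for KLF5 and -0.56 ± 0.26 for plko against hairpin controls, and 0.71 ± 0.31 for KLF5 against plko.

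TPM1 (ENSG00000140416) and TPM4 (ENSG00000167460) encode tropomyosins. TPM1 was at 235 and 315 in KLF5, 280.0 and 368 in RBPJ, 290.4 and 219 in NFIB, 269.9 and 336 in FOXA1, and 315 and 362 in plko. Its hairpin controls ran over 306, 348 and 436, with a mean of 356 ± 54.7 (SD, n = 6). Both NFIB libraries lay below that range, and both plko libraries inside it. TPM4, with the fewest reads of the 10, was at 90.3 and 78.2 in KLF5, 40.0 and 84.4 in RBPJ, 62.9 and 48.9 in NFIB, 60.6 and 66.1 in FOXA1, and 37.5 and 87.4 in plko. Its hairpin controls ran over 50.7, 64.3 and 68.0, with a mean of 61.1 ± 7.07. Both KLF5 libraries lay above that range, and the plko pair fell on both sides of it, with 17 reads in plko 1 and 141 in plko 2. For KLF5 the log2 difference was -0.37 ± 0.19 for TPM1 and 0.46 ± 0.27 for TPM4. For plko the same differences were -0.06 and -0.08.

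MYL6 (ENSG00000092841), the essential light chain of non-muscle myosin, and EZR (ENSG00000092820), ezrin, which links filaments to the membrane complete the list. MYL6 was at 965 and 1065 in KLF5, 775 and 1060.2 in RBPJ, 882 and 1058 in NFIB, 928 and 861 in FOXA1, and 1033 and 1048 in plko, against a hairpin control mean of 1045 ± 149 (880.0 to 1275, SD, n = 6). EZR was at 142 and 120.2 in KLF5, 135 and 145 in RBPJ, 225 and 120.2 in NFIB, 168 and 119 in FOXA1, and 135 and 160.5 in plko, against a hairpin control mean of 152 ± 31.4 (108 to 192). Both genes were inside the hairpin control range in all 4 libraries of KLF5 and plko. The log2 differences for KLF5 were -0.03 ± 0.18 (MYL6) and -0.19 ± 0.23 (EZR).

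**Figure D3:**
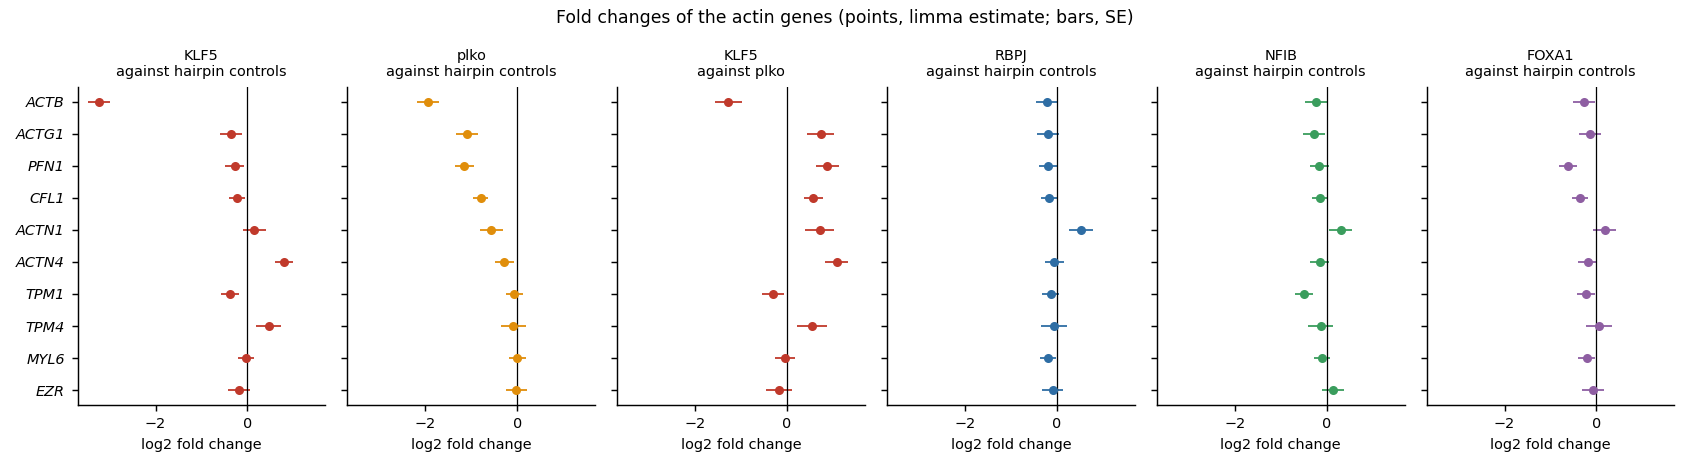
Log2 difference of the 10 genes (rows) in 6 comparisons (columns); points are the limma estimates and bars their SE, and the vertical line marks 0. ACTB is at -3.23 in KLF5 and -1.95 in plko against hairpin controls, ACTN4 at 0.80 and -0.28, and every estimate for RBPJ, NFIB and FOXA1 lies between -0.62 and 0.53.

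The threshold for a gene in the whole table was a limma adjusted p under 0.05, over 10826 genes with a signal of at least 5 in at least 2 libraries, and all 10 members passed that filter. The counts of members past it for KLF5 and plko follow as a description of the values that chose the list, not as a test of it. Against hairpin controls, KLF5 was past it at 1 member as higher (ACTN4) and 1 as lower (ACTB), where 4.42% of all genes were higher and 6.61% lower. For plko, 0 members were past it as higher and 4 as lower (ACTB, ACTG1, PFN1 and CFL1), where 1.88% of all genes were higher and 5.63% lower. KLF5 against plko had 1 higher (ACTN4) and 1 lower (ACTB), where 2.27% were higher and 1.16% lower. Nothing is read from these counts. The median log2 difference of the members was -0.21 for KLF5 and -0.42 for plko against hairpin controls, where the median of all genes was 0.05 and 0.01, and 0.56 for KLF5 against plko, where that of all genes was 0.03. All 5 comparisons with hairpin controls share those 6 libraries, and KLF5 against plko shares libraries with 2 of them. Without plko 1, the shallowest library, 2 members were past the threshold for plko and 0 for KLF5 against plko, and ACTN4 was not past it for KLF5 without KLF5 1. KLF5 against plko also had 0 members past it without KLF5 1. Leaving out KLF5 2 gave 1 and leaving out plko 2 gave 4.

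With the RBPJ hairpins, members were tested, and 0 of 10 passed by limma, as by edgeR and DESeq2. ACTN1 had the largest estimate, a log2 difference of 0.53 ± 0.26 (limma adjusted p = 0.827), and ACTB was at -0.21 ± 0.24 (adjusted p = 0.953). ACTG1 was at -0.19 (0.956), PFN1 at -0.18 (0.953) and CFL1 at -0.17 (0.945), with SE of 0.17 to 0.24. Each SE pools the spread over all groups of the fit, so for a given gene it is the same for RBPJ, NFIB and FOXA1. It does not show the wider gap between the RBPJ libraries, in which ACTB differed 2.27-fold. Of all genes 0% passed as higher and 0.0277% as lower, and 0 members and 651 genes had an unadjusted p under 0.05. The RBPJ libraries differed from each other: 7 members lay below the hairpin control range in the library labelled RBPJ 1, and 5 lay above it in RBPJ 2. The share of all genes outside that range was not computed for either library. The RBPJ pair also had the largest chi-square per degree of freedom of any construct (18.7). That measure grows with depth, and RBPJ 1 was the deepest library. The counts of members outside the range are therefore not read as a trait of the actin genes. Without RBPJ 1, in which RBPJ itself was inside the hairpin control range, ACTB was at 0.39 (adjusted p = 0.663) and ACTN1 at 0.93 (adjusted p = 0.149), and 0 members passed. In that fit RBPJ 2 is a lone library, assumed to vary like the other groups.

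With the NFIB hairpins 0 of 10 members passed by limma, edgeR or DESeq2, where 0% of all genes passed as higher and 0.00924% as lower. TPM1, below the hairpin control range in both libraries, was at -0.48 ± 0.19 (limma adjusted p = 0.702). How many of all genes lay below that range in both NFIB libraries was not computed. ACTB was at -0.24 ± 0.24 (adjusted p = 0.891), ACTG1 at -0.27 ± 0.24 (adjusted p = 0.864) and ACTN1 at 0.31 ± 0.26 (adjusted p = 0.853). An unadjusted p under 0.05 was found for 1 member and for 707 genes. EZR, at 225 in NFIB 1 and 120.2 in NFIB 2, had an estimate of 0.14 ± 0.23 (adjusted p = 0.937).

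With the FOXA1 hairpins 0 of 10 members passed by any of these tools, where by limma 0% of all genes passed as higher and 0.00924% as lower. PFN1 and CFL1 were below the hairpin control range in both FOXA1 libraries. The share of all genes below that range in both was not computed. PFN1 was at -0.62 ± 0.21 (limma adjusted p = 0.559) and CFL1 at -0.35 ± 0.17 (adjusted p = 0.702), and these were the 2 members at an unadjusted p under 0.05, beside 753 of all genes. ACTB was at -0.28 ± 0.24 (adjusted p = 0.871) and ACTG1 at -0.15 ± 0.24 (adjusted p = 0.939). The median of the members was -0.15, -0.15 and -0.20 for RBPJ, NFIB and FOXA1, and that of all genes 0.03, 0.04 and -0.0007. A p that misses the threshold with 2 libraries against 6 does not show that levels were equal.

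Across all 16 libraries PFN1 and CFL1 followed each other most closely of the 45 pairs of members, with a Pearson r of 0.96 on log2 values (n = 16 libraries). ACTG1 followed PFN1 (r = 0.75) and CFL1 (r = 0.74), ACTN4 followed TPM4 (r = 0.74), and ACTB followed ACTG1 less (r = 0.55). Over the 12 libraries without KLF5 and plko, the r of PFN1 with CFL1 was 0.94, that of ACTB with ACTG1 was 0.73 and that of ACTG1 with TPM4 was 0.88. These are descriptions: the points share construct, depth and scaling.

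The 8 genes of the whole table whose pattern was most like that of ACTB were RPL14 (r = 0.979), RAB7A (0.957), DGKA (0.956), TNPO3 (0.956), FTH1 (0.955), RPL24 (0.953), TUFM (0.952) and KRT8 (0.95), over 16 libraries. RPL14, a ribosomal protein gene, was at 114 and 174 in KLF5 and 373 and 387 in plko, against 790.3 to 1119 in hairpin controls. RAB7A, a late-endosome GTPase, was at 299 and 371 in KLF5 and 417 and 378 in plko, against 522 to 613. FTH1, the ferritin heavy chain, was at 343 and 295 in KLF5 and 582 and 579.9 in plko, against 996 to 1485. KRT8, a simple epithelial keratin, was at 13.5 and 12.8 in KLF5 and 22.1 and 14.3 in plko, against 177 to 256. That all 8 were lower in the 4 libraries of KLF5 and plko than in every hairpin control follows from how they were chosen, since those libraries set the ACTB pattern. None of the 8 is in the actin lists, whose genes, without the members, are 122 of the 10826 tested, so nothing is read from that. For ACTG1 the nearest gene was S100A16 (r = 0.924), for ACTN1 DUSP7 (0.912), for ACTN4 UBB (0.910) and for TPM4 HSPE1 (0.884). For MYL6, TPM1 and EZR it was PCDH7 (0.795), RSL1D1 (0.792) and TRAPPC14 (0.790). UBB, a polyubiquitin gene, was at 508 and 457 in KLF5 and 174 and 291 in plko, against 224 to 290.2 in hairpin controls.

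Reads of these genes can be shared with copies. The reference annotation names 21 pseudogenes of ACTG1, 12 of ACTB, 10 of PFN1, 8 of CFL1, 5 of MYL6, 3 of TPM4, 2 of ACTN4 and 1 of EZR, and 0 of these 62 were rows of the table. The 3′ reads were assumed to fall in the last 300 bases of the longest coding transcript, and read positions were not examined. The share of 31-base words there that were also present in transcripts of another gene was 45.6% for TPM4, all with a processed pseudogene. This share was 10.7% for PFN1, 3.70% for ACTB, 2.22% for CFL1 and 1.85% for ACTG1. It was 0 of 270 words for ACTN1, ACTN4, TPM1, MYL6 and EZR. TPM4 and PFN1 values are therefore uncertain where the authors' counting could split reads. Genes with a named pseudogene were 15.9% of all genes tested, 27.5% of those lower and 16.7% of those higher in KLF5, and 20.9% of those lower and 16.3% of those higher in plko, against hairpin controls. For KLF5 against plko they were 30.2% of the lower and 14.6% of the higher genes. Their part in the ACTB values was not tested.

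Other actin pathway genes were counted in the same comparisons. Of 140 listed genes, without the members, 123 were in the table and 122 were tested, and their p-values come from the fit over all 10826 genes. ACTA2, smooth muscle actin, was the only other actin in the table and was at 0.711 to 4.67 in all libraries, few reads in each, and was not tested.

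In KLF5 against hairpin controls 9 of these 122 genes rose and 9 fell, or 7.38% each way, where 4.42% of all genes rose and 6.61% fell. The lower share is near that of all genes, and neither share was tested. The counts rest on both KLF5 libraries: 0 rose and 7 fell without KLF5 1, and 3 rose and 4 fell without KLF5 2, so every call of a rise named for this comparison was lost when KLF5 1 was left out. With all 8 control libraries as the reference 3 rose and 6 fell. The median log2 difference of the 122 was 0.12, and that of all genes 0.05. Among 10 genes of subunit handling, TMSB4X, thymosin beta-4, which holds free actin, fell to 1051 and 1322 in KLF5, against 3317 ± 352 in hairpin controls (log2 -1.49 ± 0.22, limma adjusted p = 0.000103). CAP2, a cyclase-associated protein that recycles actin subunits, rose to 18.5 and 23.3 in KLF5, against 7.71 ± 3.69 (adjusted p = 0.0321), a value of few reads. Of the 2 other tropomyosins, TPM3 fell to 57.6 and 65.3, against 210.1 ± 15.1 (log2 -1.76 ± 0.21, adjusted p = 9.65e-06), the smallest p of the pathway genes in this comparison. TPM3 was below every hairpin control in both KLF5 libraries.

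Among 24 crosslinking genes 3 rose and 0 fell in KLF5: FLNA, filamin A, with 291 and 274 against 171 ± 18.3 in hairpin controls (log2 0.73, limma adjusted p = 0.0162), and the calponins CNN2 (0.87, adjusted p = 0.00768) and CNN3 (1.06, adjusted p = 0.00235). Among 15 capping and severing genes 3 rose and 0 fell. The capping subunits CAPZA1 and CAPZA2 were at 0.51 (adjusted p = 0.0458) and 0.86 (adjusted p = 0.00434), and the coronin CORO1B at 0.97 (adjusted p = 0.0458). CORO1B was at 140.0 in KLF5 1 and at 80.5 in KLF5 2, the latter near the hairpin control range of 36.4 to 80.3. ENAH, an anti-capping elongation factor, rose by 0.67 (adjusted p = 0.0456), the only change among 11 formin and Ena/VASP genes. Of 19 genes of the branching Arp2/3 complex and its activators, ARPC1B fell by 0.83 (adjusted p = 0.0123) and BRK1, of the WAVE complex, by 0.90 (adjusted p = 0.00160), and 0 rose. Of 9 membrane linkers, TLN1, talin, fell to 174 and 59.5 in KLF5, against 282 ± 21.5 (log2 -1.46 ± 0.24, adjusted p = 0.000352), and NHERF1, an ezrin-binding scaffold, by 0.80 (adjusted p = 0.00898). MYH14, a non-muscle myosin heavy chain, fell by 0.94 (adjusted p = 0.0120), as 1 of 11 myosin genes. MYH14 was at 100.2 in KLF5 1, near the hairpin control range of 102.8 to 150.9, and at 45.5 in KLF5 2.

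For plko against hairpin controls 5 pathway genes rose and 11 fell, or 4.10% and 9.02%, where 1.88% of all genes rose and 5.63% fell, and the median of the 122 was -0.05. The plko group was set apart because these data had shown it to differ, so p-values of comparisons with plko are read as a description. Of the 24 crosslinking genes 3 fell, TAGLN2, transgelin-2, by 1.09 (limma adjusted p = 0.00124), PDLIM7 by 1.05 (adjusted p = 0.0195) and drebrin, DBN1, by 0.75 (adjusted p = 0.0384), and CNN3 rose by 0.82 (adjusted p = 0.0251). Of the Arp2/3 list CTTN, cortactin, fell by 1.09 (adjusted p = 0.00314) and ARPC4 by 0.72 (adjusted p = 0.0369), and CYFIP1 rose by 0.69 (adjusted p = 0.0307). TPM3 was at 117 and 82.4 in plko (log2 -1.09, adjusted p = 0.00305) and TMSB4X at 1869 and 1796 (log2 -0.85, adjusted p = 0.0219), both lower than in the hairpin controls. NHERF1 fell by 1.01 (adjusted p = 0.00303), TLN1 by 0.83 (adjusted p = 0.0407) and the class I myosin MYO1C by 0.76 (adjusted p = 0.0460). The formin DAAM1 rose by 0.74 (adjusted p = 0.0256) and supervillin, SVIL, by 1.01 (adjusted p = 0.0256). Without plko 1, 0 rose and 2 fell, so every call of a rise was lost, and without shRFP 1, as without shLACZ 2, 3 rose and 7 fell.

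For KLF5 against plko 5 pathway genes rose and 1 fell, or 4.10% and 0.82%, where 2.27% of all genes rose and 1.16% fell, with a median of 0.09. FLNA was at 291 and 274 in KLF5 and at 113 and 118 in plko (log2 1.29 ± 0.24, limma adjusted p = 0.00720). PDLIM7 rose by 1.60 (adjusted p = 0.0118), ARPC4 by 1.05 (adjusted p = 0.0270) and CNN2 by 1.05 (adjusted p = 0.0274). MYO6, the minus-end-directed myosin VI, was at 87.4 and 103 in KLF5 and at 265 and 179 in plko, and fell by 1.19 (adjusted p = 0.0135). The count of 6 was 0 with plko 1 left out and 13, of which 9 rose, with plko 2 left out. With KLF5 1 left out 0 rose and 1 fell, and with KLF5 2 left out 2 rose and 0 fell. In the RBPJ, NFIB and FOXA1 comparisons 0 of the 122 passed limma, with 14, 7 and 7 at an unadjusted p under 0.05. Of all 10826 genes 651, 707 and 753 had such a p, and neither share was tested. Without RBPJ 1 the fit holds a lone RBPJ library, so no count is read from it. DESeq2 called 2, 0 and 0 of the 122, where it called 29, 4 and 2 of all genes. edgeR called 0 of the 122 in each, where it called 1, 0 and 1 of all genes.

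**Figure D4:**
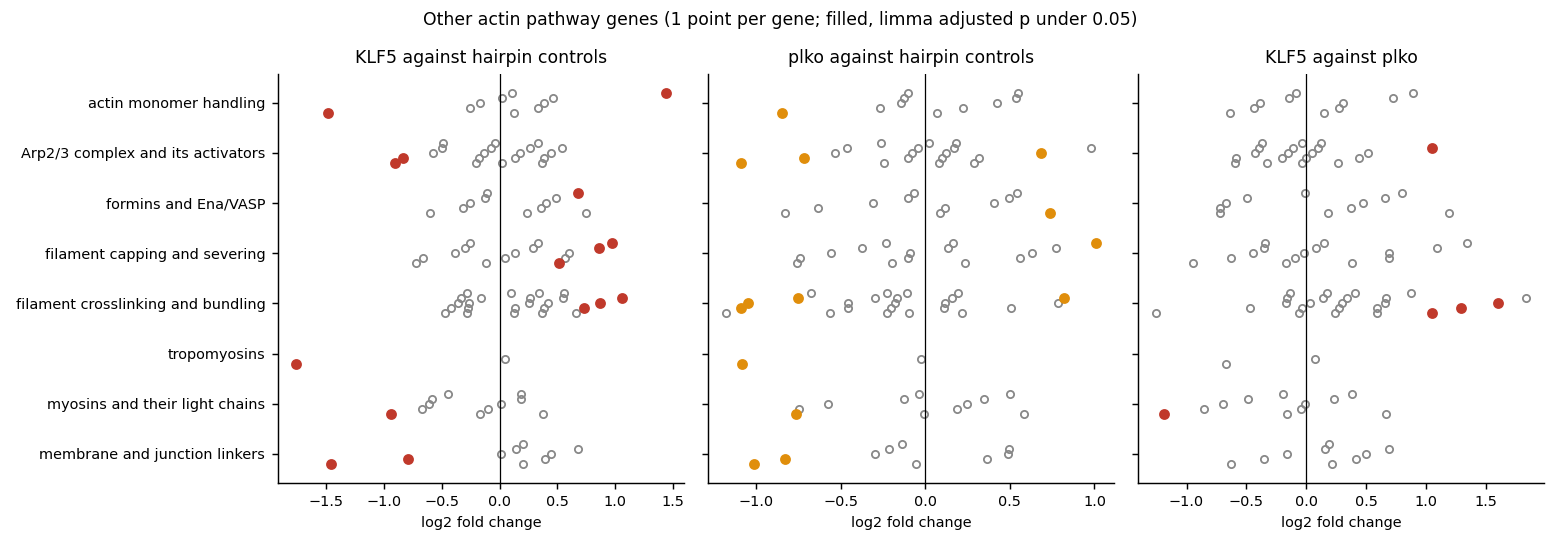
Log2 differences (horizontal axes) of the other actin pathway genes by list (rows) in 3 comparisons; each point is a gene, and filled points have a limma adjusted p under 0.05. Of the 101 genes plotted, 8 filled points lie above 0 and 7 below it in KLF5 against hairpin controls, with CAP2 at 1.44 and TPM3 at -1.76 the farthest, and in plko 4 lie above 0 and 10 below.

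Markers of other cell types were read beside these results. Of 5 fibroblast markers 4 were in the table, with summed signals of 35.5 to 43.2 in KLF5, 20.9 to 25.1 in RBPJ, 38.3 to 40.1 in NFIB, 12.5 to 22.5 in FOXA1 and 11.0 to 19.8 in plko, against 8.39 to 25.8 in hairpin controls. Of 5 smooth muscle markers 3 were in the table and summed to 24.9 to 44.3 in KLF5, 10.9 to 15.6 in RBPJ, 27.0 to 30.8 in NFIB, 15.0 to 24.4 in FOXA1 and 6.62 to 19.8 in plko, against 12.7 to 23.9 in hairpin controls. Both sums lay above the hairpin control range in both libraries of KLF5 and of NFIB, but single genes made up most of them. COL1A1 was at 27.0 to 29.2 in KLF5 and 24.6 to 32.5 in NFIB, against 6.80 to 25.8 in hairpin controls. TAGLN was at 17.8 to 36.2 in KLF5 and, inside the control range of 9.86 to 22.5, at 18.1 to 21.2 in NFIB. The other markers of both lists were at no more than 8.88 in any library. Of 4 leukocyte markers 2 were in the table, PTPRC at 0 to 3.55 in all libraries and CD68, and they summed to 18.5 to 23.3 in KLF5, 18.6 to 51.2 in RBPJ, 17.1 to 30.8 in NFIB, 25.5 to 40.8 in FOXA1 and 8.83 to 26.0 in plko, against 21.6 to 34.3 in hairpin controls. Of 3 endothelial markers 0 were in the table. The part of RNA from such cells in the differences of any construct was not tested.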

How the data were processed

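The authors deposited a gene table of DESeq2-normalized signal, as the table's name says. Its genome build is GRCh37, per the submitters' processing notes. No aligner, counter, strand setting or use of molecular identifiers is named there. In every library the signals were multiples of a step worth 1 read (100% of values, to within 0.05 read), so reads were recovered. A further 2 columns match no described sample and were left out. Symbols were found for 11259 of 11282 identifiers.

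Members, pathway lists, tests and alternatives were chosen with earlier results of these data known. Named pathway genes were up to 4 of a list with the smallest p among those that passed. The genes of 1 of the lists, of signalling factors, are in the totals but are not reported here by name or drawn.

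limma 3.58.1 with a mean-variance trend (R 4.3.3) was run on log2(signal + 1), a scale that understates changes of low genes, in 1 fit of 16 libraries with 6 levels. Genes without a signal of 5 in at least 2 libraries were left out (456), and p-values were 2-sided and adjusted by Benjamini-Hochberg. edgeR 4.0.16 and DESeq2 1.42.0 on recovered reads were alternatives. The fit was also run on simulated counts with the same spread beyond sampling noise for all genes and libraries. The real pairs differed in spread, so nothing about power in these data is read from it. Libraries of a construct differed beyond sampling noise (chi-square per degree of freedom 1.84 to 18.7), so all were kept. The labels do not say that libraries came from separate cultures, and hairpins differ within targets, so p-values measure only the spread between these samples, which may be technical.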

Additional observations from a re-analysis of the deposited data

Results flagged for a closer look

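ACTB was at 1501 in shLACZ 1, which stood apart below the other 5 hairpin control libraries, of 1997 to 2225. Its gap to the nearest library was 0.685 of the range of the 6, past the 95% critical value of Dixon's test for 6 values. That value served only as a cutoff for the flag. ACTB values of these libraries chose the list and 10 genes were looked at, so no chance rate is read from the gap. Both KLF5 libraries (161 and 275) and both plko libraries (490 and 540) lay below shLACZ 1 as well.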

How the results depend on the processing

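The alternatives were a pseudocount of 0.5 or 5, no filter, a signal minimum of 20, TMM-scaled log2 CPM, edgeR, DESeq2, a replicate block, 8 construct levels, all 8 control libraries as the reference, and each library left out in turn. Members called numbered 0 in all of them for RBPJ, NFIB and FOXA1. Leaving out single libraries gave 1 to 2 members for KLF5, 2 to 6 for plko and 0 to 4 for KLF5 against plko, where edgeR gave 1. For pathway genes it gave 0 to 3 for RBPJ (DESeq2 2), 7 to 17 for KLF5 (9 with all 8 control libraries), 2 to 17 for plko (edgeR 9) and 0 to 13 for KLF5 against plko. Replicate numbers did not pair the samples (28 construct pairs, r of -0.19 to 0.22, median 0.03); the replicate block gave 2, 4 and 3 members and 18, 16 and 6 pathway genes for KLF5, plko and KLF5 against plko.

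For RBPJ, NFIB and FOXA1, signs turned round for member estimates that passed in no setting. With all 8 control libraries, RBPJ gave ACTB 0.28, ACTG1 0.079, PFN1 0.11, CFL1 0.034 and ACTN4 0.013, NFIB gave ACTB 0.25, ACTG1 0.0039, PFN1 0.13 and CFL1 0.047, and FOXA1 gave ACTB 0.21 and ACTG1 0.12. Leaving out single libraries, RBPJ ran over -0.80 to 0.39 for ACTB, -0.84 to 0.45 for ACTG1, -0.61 to 0.25 for PFN1, -0.34 to 0.0075 for CFL1, -0.23 to 0.11 for ACTN4, -0.33 to 0.061 for TPM1, -0.59 to 0.47 for TPM4 and -0.42 to 0.032 for MYL6. NFIB ran over -0.66 to 0.12 for ACTG1, -0.010 to 0.62 for ACTN1, -0.31 to 0.048 for TPM4, -0.23 to 0.030 for MYL6 and -0.31 to 0.59 for EZR, and FOXA1 over -0.0046 to 0.12 for TPM4 and -0.32 to 0.17 for EZR. In the described comparisons, signs also turned for PFN1 (-0.41 to 0.0081), ACTN1 (-0.17 to 0.47) and MYL6 (-0.10 to 0.039) in KLF5, for ACTN4 (-0.74 to 0.17), TPM1 (-0.16 to 0.037), TPM4 (-0.68 to 0.52), MYL6 (-0.042 to 0.065) and EZR (-0.14 to 0.11) in plko, and for TPM4 (-0.056 to 1.14) and MYL6 (-0.11 to 0.034) in KLF5 against plko. Of these, ACTN4 in plko and TPM4 in KLF5 against plko were past the threshold in 1 setting each, without plko 2. The log2 difference of ACTB from hairpin controls was -3.62 to -2.74 for KLF5 and -2.03 to -1.88 for plko over all alternatives. Over all genes, 1194 were called for KLF5 (581 with all 8 control libraries, 365 without KLF5 1, 503 without KLF5 2), 812 for plko (edgeR 382, DESeq2 496, 131 without plko 1), 372 for KLF5 against plko (edgeR 146, 0 without plko 1, 958 without plko 2, 23 without KLF5 1, 69 without KLF5 2), 3 for RBPJ (9 with a pseudocount of 5, edgeR 1, DESeq2 29, 205 without RBPJ 1, 0 without RBPJ 2, 5 without shLUC 1), 1 for NFIB (edgeR 0, DESeq2 4, 0 to 4 without single libraries) and 1 for FOXA1 (2 with a pseudocount of 5, DESeq2 2, 30 without FOXA1 1, 0 without FOXA1 2, 2 without shLUC 1). The background shares move with these totals. The cause of these shifts was not tested. Depth limits TPM4 and CAP2 in plko 1.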
